A study of Mus musculus with 3 samples.

Results

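The promoters of 6 genes that build the red cell membrane and its skeleton, Slc4a1, Gypc, Xk, Ank1, Add1 and Tmod1, were followed as viewpoints in a promoter Capture-C experiment in mouse erythroid cells. A viewpoint is the DpnII restriction fragment that was pulled down, and the members were all viewpoints whose names held one of these symbols. All 6 symbols were present, each with 1 viewpoint, among 7176 viewpoints that had both a position and listed contacts. NuTi Capture-C cuts crosslinked chromatin in intact nuclei with DpnII, ligates neighbouring ends and enriches ligation junctions that hold a captured fragment, so that each unique junction counts 1 contact between the promoter and another fragment.

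All 3 libraries belonged to 1 group, ter119+ erythroid cells. They were selected with magnetic anti-ter119 beads from the spleens of hybrid mice (F1) bred from C57BL/6 and CBA/J, which received 3 phenylhydrazine doses spaced 12 h apart and were used on day 5. Phenylhydrazine lyses circulating red cells, so the spleen fills with young CD71+ ter119+ erythroid cells. No untreated animals, other stages or other cell types were measured here, and the sources used here give neither the age of the mice nor whether the libraries came from separate animals. The value columns carried no replicate names, so the letters a, b and c stand for the libraries in column order.

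The red cell membrane is held to an underlying skeleton of spectrin and short actin filaments. Band 3 (Slc4a1), the anion exchanger, is the main membrane anchor and is tied to spectrin by ankyrin (Ank1), while glycophorin C (Gypc) belongs to a second attachment at the actin junctions. Xk is a membrane protein that carries the Kx antigen and pairs with Kell, adducin (Add1) caps the fast-growing end of the junctional actin filaments and tropomodulin (Tmod1) caps the slow-growing end. Defects of band 3 and ankyrin are known causes of hereditary spherocytosis, and loss of Xk causes the McLeod phenotype.

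Single fragments were called above the count expected at their distance for Xk (3 fragments) and Slc4a1 (1 fragment) only, and their sequences are shown with the promoter ends that contacted them. All are from mm9 and read 5′ to 3′. Capitals mark matches on either strand to 3 motifs. The GATA motif was searched in 4 forms, namely AGATAA, then AGATAG, then TGATAA, and last of these TGATAG. The CACCC motif was searched as CCACCC, and the E-box by the letters CANNTG. The promoter stretches end at the base before the first annotated transcript start inside the viewpoint, and the longer fragments are shown as the 300 bases with the most matches.
Slc4a1 promoter, chr11:102226595-102226704, minus strand: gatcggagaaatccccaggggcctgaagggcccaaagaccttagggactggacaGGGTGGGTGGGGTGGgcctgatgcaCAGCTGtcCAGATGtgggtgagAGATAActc
Slc4a1 contact, chr11:102236653-102236952, plus strand: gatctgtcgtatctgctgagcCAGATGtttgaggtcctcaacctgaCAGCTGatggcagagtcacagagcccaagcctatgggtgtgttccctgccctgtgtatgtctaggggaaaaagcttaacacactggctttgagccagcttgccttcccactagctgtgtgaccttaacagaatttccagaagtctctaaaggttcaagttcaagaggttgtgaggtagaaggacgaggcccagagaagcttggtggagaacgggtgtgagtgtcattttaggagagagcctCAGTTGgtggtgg
Xk promoter, chrX:8849695-8849881, plus strand: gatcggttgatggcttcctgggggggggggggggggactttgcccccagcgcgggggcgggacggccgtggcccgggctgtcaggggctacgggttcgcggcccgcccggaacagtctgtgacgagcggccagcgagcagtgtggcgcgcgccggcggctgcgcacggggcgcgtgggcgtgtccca
Xk contact, chrX:9113424-9113723, plus strand: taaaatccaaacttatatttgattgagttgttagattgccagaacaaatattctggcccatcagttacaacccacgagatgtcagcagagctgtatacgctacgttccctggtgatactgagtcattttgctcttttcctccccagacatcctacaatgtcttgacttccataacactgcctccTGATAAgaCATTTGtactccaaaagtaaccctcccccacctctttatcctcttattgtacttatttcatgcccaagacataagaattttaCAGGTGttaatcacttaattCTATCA
Xk contact, chrX:9131987-9132286, plus strand: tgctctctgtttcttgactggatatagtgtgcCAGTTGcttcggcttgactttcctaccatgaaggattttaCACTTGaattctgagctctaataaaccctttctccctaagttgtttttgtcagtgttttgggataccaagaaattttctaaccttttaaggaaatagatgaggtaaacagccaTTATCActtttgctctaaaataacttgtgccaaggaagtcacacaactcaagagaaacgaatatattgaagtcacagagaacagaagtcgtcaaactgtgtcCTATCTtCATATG
Xk contact, chrX:9135476-9135655, plus strand: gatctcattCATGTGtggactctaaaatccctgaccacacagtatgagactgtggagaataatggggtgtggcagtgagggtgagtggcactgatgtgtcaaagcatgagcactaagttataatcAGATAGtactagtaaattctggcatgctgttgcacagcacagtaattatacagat

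The 110 bases before the Slc4a1 start held 1 GATA match, 3 CACCC matches that share bases with each other, and 2 E-boxes. Of 22364 stretches of that length before the annotated start of a protein-coding gene, 10.5% held a GATA match, 16.4% a CACCC match and 34.9% an E-box. The Slc4a1 stretch itself lies inside the annotated gene, before an internal start, so it is not the same kind of stretch. The 187 bases before the Xk start held none of the 3 motifs, which 18.7%, 24.0% and 52.3% of such stretches held. The whole called Slc4a1 fragment, 402 bases, held 3 E-boxes and neither a GATA nor a CACCC match. Of chromosome 11 fragments within 10% of its length, 88.3% held an E-box, 55.9% a GATA match and 25.5% a CACCC match. The Xk fragments, with whole lengths of 666, 669 and 180 bases, held 3, 2 and 1 GATA matches and 2, 5 and 1 E-boxes. Holding at least 1 was not unusual. A GATA match was held by 82.0%, 82.1% and 42.4% of chromosome X fragments of like length, and an E-box by 97.0%, 97.0% and 53.0%. How usual the higher counts are was not measured.

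The captured fragments each held at least 1 transcript start of their gene in the GENCODE annotation of mm9, although for Slc4a1, Ank1 and Tmod1 the annotated gene begins outside the fragment. The Slc4a1 fragment, chr11:102226274-102226704, was 431 bp long and held 2 transcript starts of the gene (chr11:102210138-102227517, minus strand). The Xk fragment, chrX:8849695-8850311, was 617 bp long with 1 start (gene chrX:8849882-8890376, plus strand). The Ank1 fragment, chr8:24145275-24147203, was 1929 bp long and held 3 starts inside the gene (chr8:24085316-24260969, plus strand). The Add1 fragment, chr5:34916054-34917371, shared its viewpoint name with Mir7036b and held 7 starts (gene chr5:34916313-34974957, plus strand). The Gypc fragment, chr18:32719074-32720978, held 2 starts (gene chr18:32687976-32719688, minus strand). The Tmod1 fragment, chr4:46051964-46052355, was the shortest and held 1 start (gene chr4:46051807-46128904, plus strand). The median length over all viewpoints was 746 bp. The assay counts DNA contacts, so it gives no level of any transcript and no marker could be used to check the cell type.

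The members differed 8.55-fold in depth. A cis event is 1 unique junction on the chromosome of the viewpoint. Xk gave 7385, 10650 and 10204 cis events in libraries a, b and c, Ank1 3531, 6197 and 6147, and Gypc 3256, 5417 and 5623. Add1 gave 2620, 4290 and 4482, Slc4a1 1592, 2364 and 2252, and Tmod1 800, 1322 and 1179. The Xk total of 28239 was above that of 92.6% of all viewpoints, but above only 11.4% of the 201 viewpoints on chromosome X, whose median was 56954. Tmod1, with 3301 events, was the shallowest member and stood above 25.4% of all viewpoints.

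Over all viewpoints the counts of b and c showed no more difference than sampling noise gives (mean chi-square of 0.954 per 5 kb window over 272801 windows), while a stood slightly further from each (1.16). This pair was therefore counted as 1 sample, and each SD below has n = 2: library a, and the mean of b and c. For the members themselves the counts of b and c did not differ in the chi-square test either, with p from 0.133 for Ank1 to 0.978 for Slc4a1. Library a differed from b and from c for Ank1 (p of 0.0372 and 0.0251) and from c for Xk (p of 0.025), before any adjustment over the 18 pairs of libraries compared.

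Contacts of Slc4a1, Ank1, Add1 and Tmod1 lay within 1 Mb more often than those of most viewpoints, and between 10 and 100 kb all 6 members were above the median. The share of cis events lying 2.5 kb to 1 Mb away was 62.2%, 58.2% and 58.1% for Slc4a1 in libraries a, b and c, with a mean of 60.2% ± 2.9 (SD, n = 2). It was 58.6% ± 4.77 for Ank1, 54.2% ± 3.49 for Add1, 52.6% ± 1.3 for Tmod1 and 43.7% ± 2.29 for Gypc. Xk had the lowest share, 41.8%, 38.1% and 37.8% in the libraries and 39.9% ± 2.76 on average. The median of all 6718 viewpoints with at least 1000 cis events was 42.3%. Slc4a1 stood above 94.2% of them, Ank1 above 91.6%, Add1 above 84.5%, Tmod1 above 82.9%, Gypc above 51.9% and Xk above 37.1%. Gypc exceeded the median by less than its SD, and Ank1, Add1, Slc4a1 and Tmod1 by more. The median and the ranks are of summed libraries, in which a has less weight than in the means. So summed, the share was 59.2% for Slc4a1, 56.7% for Ank1, 52.8% for Add1, 52.0% for Tmod1, 42.8% for Gypc and 39.0% for Xk. Against the viewpoints of its own chromosome, with a median of 34.4%, Xk stood above 72.1%. Library a was higher than both other libraries in all 6 members, and each SD reflects how far a lay from the mean of b and c.

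**Figure D1:**
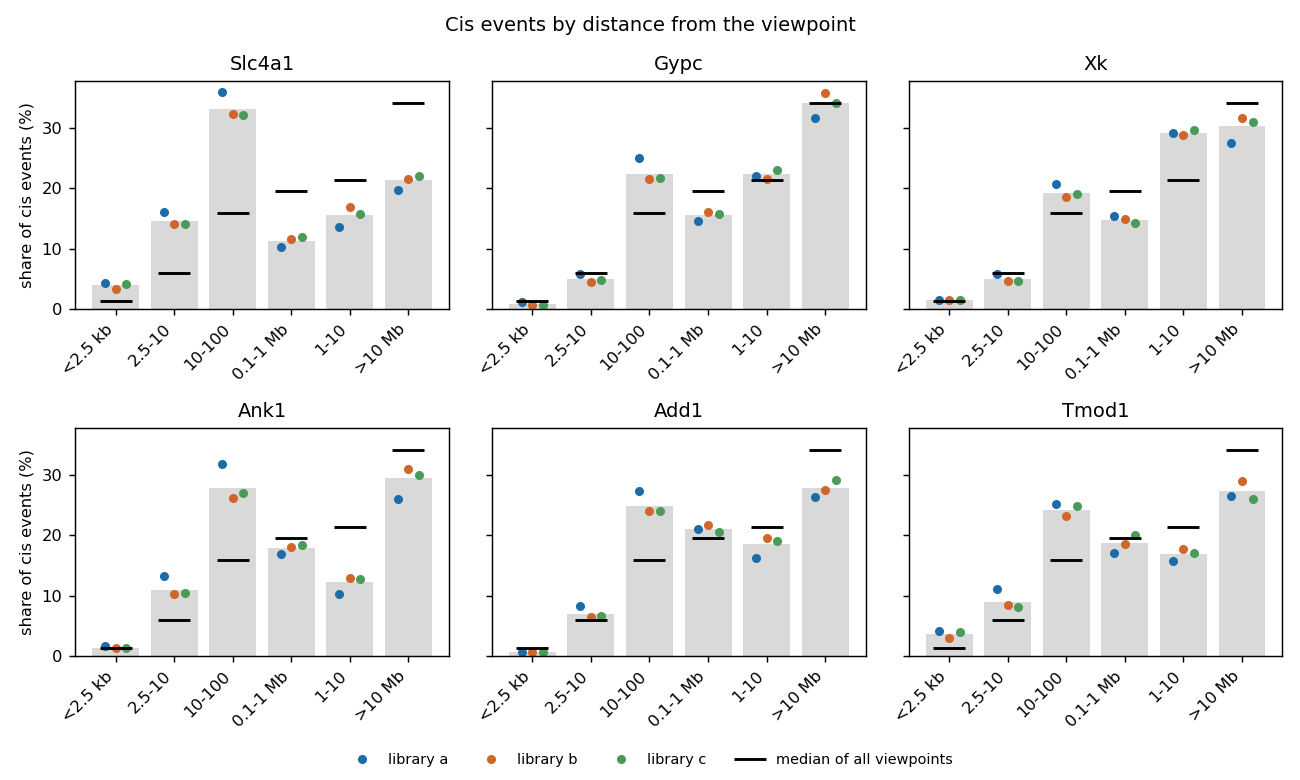
Share of cis events (%, vertical axis) of each member in 6 classes of distance from the viewpoint (horizontal axis). Grey bars are the sum of the libraries, dots are libraries a, b and c, and black dashes the median of all viewpoints; the 10 to 100 kb bar of Slc4a1 reaches 33.2% against a median of 15.9%.

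The excess was made at short range. Between 10 and 100 kb Slc4a1 placed 36.0%, 32.4% and 32.1% of its events in libraries a, b and c, or 34.1% ± 2.63, against a median of 15.9%. That share was above 99.4% of all viewpoints, and its share at 2.5 to 10 kb, 15.1% ± 1.38, was above 99.9%. Ank1 followed with 29.3% ± 3.72 at 10 to 100 kb, above 96.9%, and then Add1 with 25.7% ± 2.37, Tmod1 with 24.7% ± 0.831 and Gypc with 23.3% ± 2.42. The last 3 stood above 93.0%, 92.1% and 86.7% of viewpoints. Xk had 19.8% ± 1.37 there, above 73.2%, and put 29.2% ± 0.0791 of its events at 1 to 10 Mb, above 93.3% of viewpoints.

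**Figure D2:**
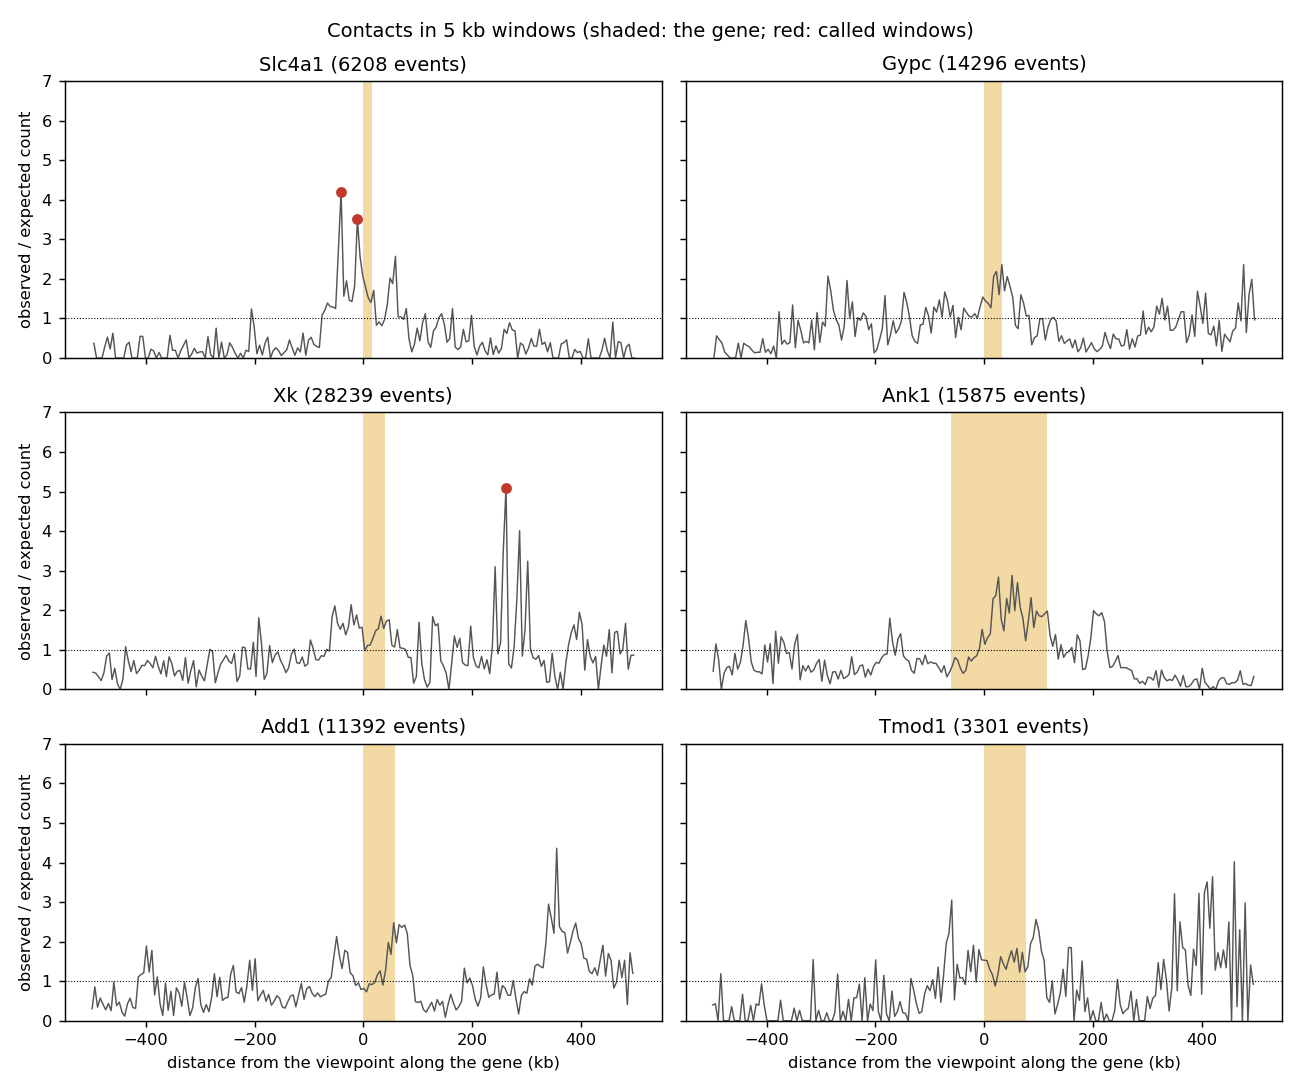
Observed over expected count (vertical axis) in 5 kb windows within 500 kb of each viewpoint, along the direction of the gene (horizontal axis, kb). Shading marks the gene and red points the called windows: Slc4a1 has 2 upstream, at ratios of 4.2 and 3.51, and Xk has 1 downstream, at 5.1.

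Distal contacts were tested with a negative binomial model. It compares each count with the count expected from the distance and from the events of the viewpoint 2.5 kb to 1 Mb away. The observed over expected ratio is that quotient, with a 95% Poisson interval that covers counting error only. In 5 kb windows, 3 windows of members were called at an adjusted p under 0.05 with every library above expectation, 2 for Slc4a1 and 1 for Xk. Over all viewpoints 0.156% of 2660515 windows were called, and 27.9% of viewpoints had at least 1, so 2 of 6 members is near the background. At single fragments 4 were called in the same 2 members, beside a background of 0.00411% of fragments and 7.86% of viewpoints. Gypc, Ank1, Add1 and Tmod1 had no called window or fragment. In 10 kb windows no member window was called, where 23.1% of all viewpoints had a call. At an unadjusted p under 0.05, 12 to 19 windows passed in each member, or 2.99% to 4.75% of its windows, against 5.58% over all viewpoints.

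Both called Slc4a1 windows lay upstream, although raised counts lay on both sides of the viewpoint. The window with the highest ratio, chr11:102265001-102270000, lay 41.0 kb upstream and held 45, 46 and 37 events in libraries a, b and c, or 2830, 1950 and 1640 reporters per 100000 cis reporters. Every library was above its expected count of 8.38, 11.3 and 10.8. The ratio was 4.2 (interval 3.5 to 4.99), or 4.56 ± 1.15 (SD, n = 2), with an adjusted p of 0.00174. This window covers coding sequence of Slc25a39, a mitochondrial carrier gene whose own captured promoter lies inside it. Of the 12 Slc4a1 windows at an unadjusted p under 0.05, 7 lay upstream and 5 downstream. A stretch on both sides, out to 46.0 kb, held 8 of them, and 3 lay between 49.0 and 59.0 kb downstream. These stretches were picked by their counts and were not tested.

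The second Slc4a1 window, chr11:102235001-102240000, lay 11.0 kb upstream and held 62, 75 and 69 events against 16.9, 21.5 and 20.5 expected. Its ratio was 3.51 (interval 3.05 to 4.02), or 3.55 ± 0.167, with an adjusted p of 0.00235. With every viewpoint scaled to the same total before the expected count was taken, the ratio was 3.08 and the adjusted p 0.0511. The window overlaps an exon of Gm11616, annotated as a processed transcript, and contains the called fragment shown above. That fragment, chr11:102236653-102237054, held 13, 20 and 20 events against 9.22 expected in sum, a ratio of 5.75 (interval 4.31 to 7.52) or 5.47 ± 0.864, with an adjusted p of 0.0236. Without library b the negative binomial adjusted p was 0.102, without library c 0.126, with viewpoints scaled to the same total 0.11 and with the dispersion from all pairs 0.402, so the call was lost in 4 of 8 alternatives.

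Slc4a1 and Slc25a39 each had counts above expectation beside the promoter of the other, and these counts were not tested. On the fragments 1 or 2 places beside the Slc25a39 promoter Slc4a1 had 55 events against 13.4 expected (ratio 4.1), and in the reverse direction Slc25a39 had 71 against 28.4 next to the Slc4a1 promoter (ratio 2.5). The window over Slc25a39 was also called from both captured promoters of Ubtf, which encodes an RNA polymerase I factor and lies on the other side of Slc4a1. Ubtf_a had 31 events there against 5.28 expected, and Ubtf_b 322 against 88.6. From 21 other viewpoints 10 kb to 1 Mb away with at least 1 event expected there, the median ratio was 1.27, and 1 was higher than that of Slc4a1. For the nearer window the median from 19 other viewpoints was 1.53 and the highest 3.29, and none had it called. Slc25a39 had 177 events against 62.5 expected in that window, a ratio of 2.83.

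**Figure D3:**
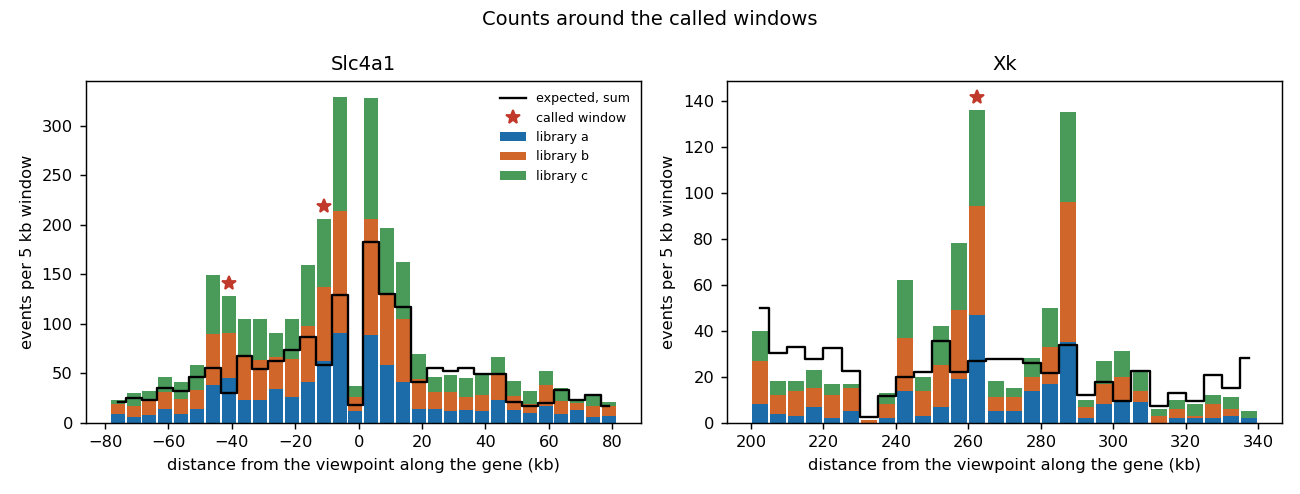
Events per 5 kb window (vertical axis, libraries stacked) around the called windows of Slc4a1 and Xk, by distance along the gene (horizontal axis, kb), with the expected sum as a black line and called windows starred. The starred Xk window holds 136 events against 26.7 expected, and the starred Slc4a1 windows 128 against 30.5 and 206 against 58.7.

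Xk contacts were called far beyond its 3′ end. The called window, chrX:9110001-9115000, lay 262 kb downstream between genes, with 45104 bp to Cybb and 34027 bp to the predicted gene Gm5132. Cybb encodes the phagocyte oxidase subunit gp91phox. The window held 47, 47 and 42 events in libraries a, b and c against 7.24, 9.92 and 9.44 expected. Its ratio was 5.1 (interval 4.28 to 6.03), or 5.54 ± 1.35 (SD, n = 2), with an adjusted p of 0.011, and 0.0723 when the dispersion was taken from all pairs. The Rpgr promoter, the only other viewpoint within 1 Mb that expected at least 1 event in that window, had a ratio of 2.26 there and did not call it.

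The 3 called Xk fragments lay 264, 282 and 286 kb downstream, and none overlapped a gene. The nearest of them lay in the called Xk window, and the windows between it and the other two, at 267.5, 272.5 and 277.5 kb, had ratios of 0.65, 0.541 and 1.09. The farthest, chrX:9135476-9135655, had 11, 12 and 10 events against 1.98 expected in sum, a ratio of 16.7 (interval 11.5 to 23.4), with an adjusted p of 0.00154. It was the only member fragment called under each of the 8 alternatives that could be applied to it. The fragment at chrX:9113290-9113955 had 10, 12 and 9 events against 2.22, a ratio of 14.0 and an adjusted p of 0.00852. Without library a the negative binomial adjusted p was 0.0565, without library b 0.0685 and with the dispersion from all pairs 0.0788, so the call was lost in each. The third, at chrX:9131880-9132548, had 8, 9 and 8 events against 1.98, a ratio of 12.6 and an adjusted p just under the threshold, at 0.05 after rounding. It lost the call in 5 of 8 alternatives, where the negative binomial adjusted p ran from 0.139 to 0.192 without any 1 of the libraries and was 0.0804 with viewpoints scaled to the same total and 0.402 with the dispersion from all pairs. No called window or fragment of Xk or Slc4a1 shared a 30-base word with its viewpoint.

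The 2 Gypc windows with the lowest p both lay over the gene itself. The window 22.5 kb downstream held 59, 62 and 70 events against 87.4 expected in sum, a ratio of 2.19 (interval 1.89 to 2.52) with an adjusted p of 0.346. The window 32.5 kb downstream, at the 3′ end, held 27, 36 and 50 against 48.0, a ratio of 2.36 with an adjusted p of 0.405. Both windows share at least 1 word of 30 bases with the Gypc viewpoint, and the part of that repeated sequence in the ratio was not tested. From 10 other viewpoints within 1 Mb the median ratios over these windows were 2.67 and 2.6, and 7 of the 10 exceeded Gypc in each.

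Ank1 showed a band of raised ratios over the part of its gene downstream of the captured start, none of them called. The window with the lowest p, 51.3 kb downstream and over coding exons, held 20, 28 and 32 events against 27.8 expected, a ratio of 2.88 (interval 2.28 to 3.59) or 2.91 ± 0.0794, with an adjusted p of 0.127. The next, 26.3 kb downstream, held 28, 51 and 52 against 46.1, a ratio of 2.84 and an adjusted p of 0.143, and its ratio was 1.88 with expected counts scaled by fragment length. Other viewpoints with at least 1 event expected had median ratios of 1.99 and 2.59 over these windows. Of these, 2 of 7 and 4 of 8 exceeded Ank1. The remaining viewpoints, with less than 1 event expected, all had higher ratios than Ank1 in both windows. Of the 18 Ank1 windows at an unadjusted p under 0.05, 16 lay downstream and 2 upstream, and for Gypc the split was 16 and 1. Only 5 of the 17 Gypc windows lay within 100 kb. Others fell in stretches with 5 such windows between 768 and 802 kb and 3 between 912 and 922 kb downstream. All 16 of Ank1 fell in 1 stretch between 16.3 and 116 kb, with 831, 1194 and 1243 events in the libraries against 1660 expected, and the annotated gene ends 115 kb from the viewpoint. The stretches of both members were picked by their counts, so they are given without a test.

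Ank1 has several annotated promoters, and the captured fragment holds 3 of its 20 transcript starts. The 3 starts at the 5′ end of the gene lay 58.7 kb upstream in a window with 9, 12 and 12 events against 55.8 expected, a ratio of 0.592. Windows with the downstream starts ran from a ratio of 1.84 at 106 kb to 2.84 at 26.3 kb. The window with 6 starts, 21.3 kb downstream, had 65, 87 and 103 events and a ratio of 2.37, or 2.38 ± 0.023, with an adjusted p of 0.151. The ratio over the upstream starts lay below that over every downstream start window in these sums, and the difference was not tested.

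Add1 windows with the lowest p lay far from the gene. The first, 356 kb downstream and between genes near Htt, held 6, 7 and 9 events against 5.04 expected, a ratio of 4.36 (interval 2.73 to 6.61) and an adjusted p of 0.198. The other lay 944 kb upstream over Fam53a, whose promoter was also captured, with 5, 6 and 7 events against 3.44, a ratio of 5.24 and an adjusted p of 0.205. Of 11 other viewpoints with at least 1 event expected the median ratio over the first window was 2.89, and Rnf4 exceeded Add1 with 4.92. Nearer the gene, 7 of 8 adjoining windows between 45.8 and 80.8 kb downstream had an unadjusted p under 0.05, with 140, 222 and 244 events against 285 expected. This stretch starts within Add1 and runs past its end at 58.2 kb.

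Tmod1 was the shallowest member, and none of its windows was called. Its window with the lowest p, 855 kb downstream in an intron of Gabbr2, held 0, 3 and 4 events against 1.0 expected. The ratio was 6.98 (interval 2.8 to 14.4), or 4.55 ± 6.43 (SD, n = 2), with an adjusted p of 0.261. The next lay 59.7 kb upstream in an intron of Tdrd7 with 8, 5 and 5 events against 5.91, a ratio of 3.05 (interval 1.8 to 4.81) and an adjusted p of 0.368. There the median of 11 other viewpoints with at least 1 event expected was 2.71, and 4 of them exceeded Tmod1. The Tmod1 ratio was 1.95 with expected counts scaled by fragment length. One event of Tmod1 was worth 125 reporters per 100000 in library a, against 13.5 for Xk. A difference visible in Xk could be below detection in Tmod1. Whether depth accounts for the lack of calls was not tested. Cd47, a further gene with 1878 events, had 4 called windows, and 897 of 6718 viewpoints had at least 2.

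Counts over the whole gene were above expectation for 5 members and at expectation for Add1, where the median viewpoint was itself above expectation. Gypc had ratios of 1.73, 1.56 and 1.68 in libraries a, b and c, a mean of 1.67 ± 0.0737 (SD, n = 2). Slc4a1 had 1.57 ± 0.0878, Ank1 1.38 ± 0.0265, Tmod1 1.37 ± 0.0138 and Xk 1.25 ± 0.0376, while Add1 had 1.0 ± 0.0203. The median of 5695 viewpoints with at least 20 events expected over their gene was 1.16. Gypc stood above 87.4% of these, Slc4a1 above 85.8%, and Add1 above 29.6%. Xk stood above 59.6%, Ank1 above 70.8% and Tmod1 above 70.9%. Ank1 and Tmod1 differed by less than either SD.

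Set against the same distances on the other side of the promoter, only Ank1 and Gypc had the higher ratio over the gene in every library. The Ank1 ratio was 1.75, 1.69 and 1.73 over the downstream part of the gene and 0.801, 0.798 and 0.787 upstream, so the gene side was 2.18, 2.12 and 2.2 times the other in the 3 libraries. For Gypc the gene side was 1.47, 1.31 and 1.5 times the other. The order was turned in every library for Slc4a1, Xk and Add1. Slc4a1 had 1.51, 1.6 and 1.66 over its short gene and 2.58, 2.72 and 2.6 upstream, the flank with the called windows. Tmod1 had 1.37 ± 0.0138 over the gene and 1.47 ± 0.129 upstream, within the spread. Beyond the gene, over 1 further gene part length, Ank1 had a ratio of 1.08 ± 0.129. This comparison was chosen after the profiles were seen and is a description.

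**Figure D4:**
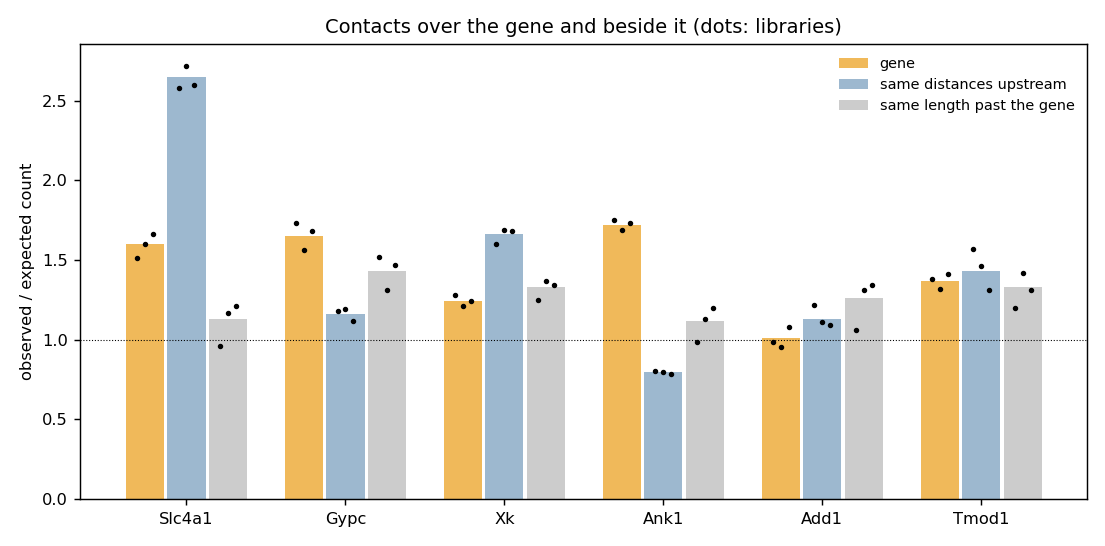
Observed over expected count (vertical axis) of each member over its gene downstream of the viewpoint, at the same distances upstream, and over the same length past the gene end. Bars are the sum of the libraries and dots libraries a, b and c; for Ank1 the gene bar stands at 1.72 and the upstream bar at 0.795, and for Slc4a1 at 1.6 and 2.65.

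Over the wider range of 10 kb to 1 Mb, Ank1 was the most one-sided member. Its upstream share was 35.8%, 39.9% and 37.9% in libraries a, b and c, or 37.4% ± 2.18, where the distances of the listed fragments give an expected 52.5%. Corrected for that, the downstream ratio was 1.79 times the upstream one, which was more one-sided than 79.4% of 6160 viewpoints, whose median was 1.34. Tmod1 had 41.0% ± 3.74 upstream against 48.2% expected, and Gypc 45.1% ± 1.36 against 50.4%. Add1 with 46.3% ± 2.23 against 48.3% differed from its expected share by less than its SD. Slc4a1 was the only member whose upstream share was above its expected share, 55.6% ± 1.3 against 50.5%. Its upstream ratio was 1.25 times the downstream one, more one-sided than 39.4% of viewpoints. Its ratios in this range were 0.877 upstream and 0.701 downstream. Expected counts are scaled to its own events from 2.5 kb to 1 Mb, so these ratios do not mean few contacts for its depth. Of all its cis events, 33.2% lay at 10 to 100 kb (median of viewpoints 15.9%) and 11.3% at 100 kb to 1 Mb (median 19.6%). For Xk the upstream share of 49.0% ± 0.855 was below the expected 52.3% out to 1 Mb but 54.2% when only distances to 200 kb were counted, where the corrected upstream ratio was 1.09 times the downstream one.

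Fragments 1 or 2 places from other captured promoters were used to look at promoter contacts, since no captured fragment is itself listed as a contact. Tmod1 stood highest, with 48 events over 59 such fragments against 17.0 expected, ratios of 2.43, 2.71 and 3.21 in libraries a, b and c and a mean of 2.69 ± 0.375. It was above 96.8% of 4107 viewpoints with at least 20 events expected, whose median was 1.4, although its own expected count was below 20, and the ratio was 1.54 with fragments 1 place away only. Gypc had 1.97 ± 0.344, Slc4a1 1.92 ± 0.306, Add1 1.61 ± 0.252 and Ank1 1.48 ± 0.289. Gypc and Slc4a1 differed by less than either SD, as did Add1 and Ank1. Xk had 1 other captured promoter within 1 Mb, Rpgr, with 2 events against 2.29 expected, too few to compare. In the reverse direction Rpgr had 16 events against 4.13 expected beside the Xk promoter, a ratio of 3.87, which was not tested.

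Among the viewpoints within 1 Mb of each member, those with the most alike profile were found by Pearson correlation. It was taken over shared windows more than 10 kb from both. It is given as a description because profiles of neighbours share the sequence and libraries of the same windows. For Ank1 they were Vdac3 (r = 0.68, 303 windows), a mitochondrial channel gene, and Ckap2 (r = 0.59, 222 windows). For Add1 they were Haus3_Poln (0.65) and Rnf4 (0.56), for Slc4a1 Ubtf_b (0.63) and Slc25a39 (0.54), and for Gypc Map3k2 and Ercc3 (both 0.55). Tmod1 was closest to Hemgn (0.55, 320 windows), which encodes hemogen, a nuclear protein of blood cell precursors, and to Trmo (0.49). Xk had only Rpgr to compare with (0.46). The median over all viewpoints compared ran from 0.31 for Slc4a1 to 0.48 for Add1.

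Other genes of the red cell membrane and skeleton gave a wider view of the pathway. Of 35 symbols listed, 21 had a viewpoint, giving 23 viewpoints of which 21 reached 1000 cis events. A window was called for 12 of the 21 (57.1%) and a fragment for 3 (14.3%), beside the backgrounds of 27.9% and 7.86% for all viewpoints, and the tested viewpoints held 1878 to 163133 events. Slc14a1 (urea transporter) had 5 called windows, Cd47 4, and Sptb (beta spectrin) and Aqp1 (water channel) 2 each. Of all 6718 viewpoints tested, 897 had at least 2 called windows, and the most for any viewpoint was 25. The highest Slc14a1 window, 313 kb away over the captured promoter of Haus1, held 37 events against 4.84 expected, a ratio of 7.65 with an adjusted p of 0.00146. The highest windows of Cd47 and Aqp1 had ratios of 6.42 and 4.83, and that of Sptb 4.19, close to the 4.2 of Slc4a1. The contrast with all viewpoints did not hold under every setting. With the dispersion taken from all pairs 2 of 21 (9.52%) had a called window beside 8.29% of all viewpoints, and with 2 kb windows 7 of 21 (33.3%) beside 31.5%. Without library c it was 7 of 21 (33.3%), still above the 19.8% of all viewpoints. Without library b it was 8 of 21 (38.1%) beside 20.2%, and without library a 12 of 21 (57.1%) beside 24.5%. In 10 kb windows it was 47.6% beside 23.1%. Scaling to the same total gave 42.9% beside 24.8%, and scaling by fragment length 38.1% beside 22.6%. Leaving out the highest 1% gave 81.0% beside 47.5%, and Poisson counts 100% beside 99.7%. These differences were not tested. For fragments the share with a call was 1 of 21 (4.76%) beside 6.62% without library a, and 5 of 21 (23.8%) beside 24.1% with a dispersion fitted without the highest 1%. The highest windows of 2 of the 12 viewpoints, Rhag and Ermap, shared a 30-base word with their viewpoint, and that of Rhag held its own captured fragment, which leaves 10.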

How the data were processed

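The data are 3 NuTi Capture-C libraries from ter119+ erythroid cells. The submitters' processing notes name Trim Galore, Bowtie and mm9, and versions are not given in the sources used here. The deposited signal gives, per viewpoint, fragment and library, unique cis reporters scaled by the authors to 100000 per viewpoint. Each value was divided by the lowest value above 0 of its viewpoint and library, taken as 1 event, and 100% of values were whole within 0.01. They summed to 18230099, 34428035 and 34233560 cis events in libraries a, b and c. No molecular identifiers are described in the sources used here, and intervals cover counting error only.

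Each viewpoint with at least 1000 cis events was tested against all fragments 2.5 kb to 1 Mb away. Expected counts were the mean rate in 50 distance bins times the events of the viewpoint from 2.5 kb to 1 Mb, not all its cis events. An upper-tail negative binomial p used a dispersion per bin, fitted by moments without the highest 0.1% of standardised counts, with Benjamini-Hochberg adjustment over all fragments or all 5 kb windows of all viewpoints and every library above expectation. Libraries b and c, alike within sampling noise, entered each SD as their mean. Medians and ranks over all viewpoints rest on summed libraries. The calling code was run on counts simulated from its own model, which checks the code and not how the model suits the real counts. A call compares fragments within these libraries and not conditions.

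Members and lists were chosen with earlier results of these data known. So was the choice to leave the highest standardised counts out of the dispersion. The adjusted p values therefore do not come from a setting fixed beforehand, and fewer calls remained with the dispersion from all pairs. Named were all members, up to 5 called windows and fragments of each, or else the 2 windows of lowest p, and genes overlapping them. Also named were up to 5 further genes by called windows, and for each member the 2 viewpoints within 1 Mb of most alike profile. One further gene that this rule names is not reported here. Alternatives changed the dispersion, the expected count, the least depth, the window size, the distance limits, the places counted beside a promoter and the libraries used. Annotation was GENCODE vM1 on the same build. Analyses used Python 3.11.15, numpy 2.4.6, pandas 2.3.3 and scipy 1.17.1.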

Additional observations from a re-analysis of the deposited data

How the results depend on the processing

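The 3 called windows of the members all kept their call in each fit without 1 library, and their count stayed at 3. No member had a called window at 10 kb (count 0), where 23.1% of all viewpoints had a call, beside 27.9% in the main setting. At 2 kb 7 were called (31.5% of viewpoints had a call), and 5 with the expected count scaled by fragment length (22.6%). The cause was not tested. The 4 called fragments became 1 with the dispersion from all pairs, where the share of all viewpoints with a call went from 7.86% to 2.31%. They became 2 with viewpoints scaled to the same total (6.45% of viewpoints), and 7 with a dispersion fitted without the highest 1% (24.1%). Scaling by fragment length gave 7 (12.2%), and leaving out a library 1 to 2 (5.18% to 6.62%). Under a Poisson model 311 fragments and 143 windows of the members were called, where 98.0% and 99.7% of all viewpoints had a call. The 12 further viewpoints with a called window became 2 with the dispersion from all pairs, 7 with 2 kb windows, 21 with Poisson counts and 7 to 12 without a library, and the 3 with a called fragment became 1, 5 with the highest 1% left out (23.8% beside 24.1% of all viewpoints), 21 with Poisson counts (100% beside 98.0%) and 1 to 2 without a library (4.76% beside 6.62% without library a).

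Without 1 library the cis events ran from 6910 to 8772 for Add1, 17589 to 20854 for Xk, 3844 to 4616 for Slc4a1, 9678 to 12344 for Ank1, 8673 to 11040 for Gypc and 1979 to 2501 for Tmod1. The ratio over the gene ran from 0.967 to 1.04 for Add1 and from 1.34 to 1.4 for Tmod1. The local share of Tmod1 became 54.0% with events within 2.5 kb left out of the total. The upstream share out to 200 kb was 54.2% for Xk, 58.4% for Slc4a1, 29.7% for Ank1 and 48.3% for Gypc, and counted from 2.5 kb it was 53.4% for Slc4a1. With viewpoints scaled to the same total the ratio over the gene was 0.903 for Add1, 1.1 for Xk, 1.39 for Slc4a1, 1.25 for Ank1, 1.48 for Gypc and 1.26 for Tmod1, and with fragment length 1.08 for Add1, 1.4 for Ank1 and 1.31 for Tmod1. Beside captured promoters, 1 place away, it was 0 for Xk, 1.4 for Gypc and 1.54 for Tmod1, and 2.28 for Tmod1 over 1 to 3 places.

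Depth differed between the members, and its part in which of them had calls was not tested. Tmod1 with 3301 events was left out at a minimum of 5000 events. No paired analysis was possible because the samples form 1 group.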
